A study of Mus musculus with 6 samples.

Results

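The transcripts of 9 glutamate and GABA transporter genes were followed in hippocampal RNA of 6 adult male mice. The genes were chosen by name, as vesicular and plasma membrane carriers of the main excitatory and inhibitory transmitters, and all 9 were found among the 20620 genes of the deposited count table and passed the filter on low counts. All 6 mice were male, on a C57BL/6J background, and carried 1 Braf allele with the Q241R substitution, a substitution that the series title ties to cardio-facio-cutaneous syndrome. The 3 n-Braf mice (genotype Braf Q241R/+ with CaMKII-Cre) were 32 to 34 weeks old, and Cre was driven by a promoter that is active in mature excitatory neurons of the forebrain. The 3 control mice (genotype Braf Q241R Neo/+, without Cre) were 31 to 32 weeks old and kept the Neo cassette in the mutant allele. The groups therefore differed in Cre and in the cassette together, and the effect of either cannot be told apart from that of the mutant kinase. No wild-type tissue was analysed here. The question was which transporter transcripts differ when the mutant is expressed in excitatory neurons.

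Glutamate is packed into synaptic vesicles by the carriers VGLUT1, VGLUT2 and VGLUT3, encoded by Slc17a7, Slc17a6 and Slc17a8, and GABA by the single carrier VGAT, encoded by Slc32a1. After release, glutamate is cleared mainly by astrocytes through GLT1 (Slc1a2) and GLAST (Slc1a3), and to a lesser extent by neurons through EAAC1 (Slc1a1). Of the plasma membrane GABA carriers among the 9, Slc6a11 is a transporter of astrocytes, and Slc6a13 is best known from leptomeninges, the thin membranes over the brain surface, and from vessels. In the hippocampus Slc17a7 marks the pyramidal and granule neurons and Slc32a1 the interneurons, while Slc17a6 is more abundant in neighbouring regions such as thalamus and subiculum.

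None of the 9 transcripts passed the test, and the largest differences were small. Slc1a2, Slc17a7 and Slc1a1 were each higher in every n-Braf library than in every control library, each by 1.12-fold. Among all 20604 genes tested, the groups did not overlap in 11.5%. For Slc1a1 the separation was narrow, with n-Braf 1 at 121.4 CPM and control 2 at 120.9 CPM. Slc32a1, Slc1a3 and Slc6a11 differed by less than the spread between mice. Slc6a13 varied 7.73-fold between mice without separating the groups. Levels are given as CPM, read counts normalised to library depth, scaled between libraries by trimmed means of M values (TMM). Log2 fold changes are n-Braf over control, from the quasi-likelihood test of edgeR with Benjamini-Hochberg adjustment over 20604 genes and a threshold of 0.05.

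The sequence upstream of the transcription start is shown for the 3 genes whose groups did not overlap and for Slc1a3, the astrocytic partner of Slc1a2, so that the promoters of 2 neuronal and 2 astrocytic carriers can be set side by side. The stretches come from RefSeq on GRCm38.p6, run 5′ to 3′ on the strand of the gene, and leave out bases that GENCODE M21 places in an exon of that gene. They are chr7:45163671-45163920 for Slc17a7, chr19:28834885-28835048 for Slc1a1 and chr2:102706188-102706355 for Slc1a2, all on the plus strand, and chr15:8710808-8711057 for Slc1a3 on the minus strand. The stretch of Slc1a2, 168 bases long, stops short of its RefSeq start, as the bases before that start run on to 102706437. Of the bases not shown for Slc1a2, 29 are exonic, and the rest lie outside its exons but are left out too. Capitals mark GC boxes (GGGCGG, either strand, here with 1 pair sharing a base) and the CREB core TGACG (either strand).
Slc17a7: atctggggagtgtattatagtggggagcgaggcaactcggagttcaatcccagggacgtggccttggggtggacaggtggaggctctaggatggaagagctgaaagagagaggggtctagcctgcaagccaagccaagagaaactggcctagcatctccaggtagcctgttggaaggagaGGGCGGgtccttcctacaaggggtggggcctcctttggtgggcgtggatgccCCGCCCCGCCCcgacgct
Slc1a1: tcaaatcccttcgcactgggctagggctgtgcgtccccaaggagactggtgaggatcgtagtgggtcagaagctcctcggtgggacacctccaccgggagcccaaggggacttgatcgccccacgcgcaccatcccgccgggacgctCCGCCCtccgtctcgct
Slc1a2: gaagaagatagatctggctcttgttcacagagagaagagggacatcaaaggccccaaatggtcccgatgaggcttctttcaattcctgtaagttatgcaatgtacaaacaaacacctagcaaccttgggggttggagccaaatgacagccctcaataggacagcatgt
Slc1a3: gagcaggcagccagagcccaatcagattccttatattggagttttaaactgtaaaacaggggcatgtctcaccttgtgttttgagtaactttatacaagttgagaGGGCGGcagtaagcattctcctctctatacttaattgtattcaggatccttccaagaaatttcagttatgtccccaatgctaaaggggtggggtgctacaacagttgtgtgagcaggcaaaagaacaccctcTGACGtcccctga

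The 250 bases before the RefSeq start were 61.2% G or C for Slc17a7 and 70.4% for Slc1a1, against 44.8% for Slc1a2, 44.8% for Slc1a3 and a median of 52.4% over 32851 such windows. The RefSeq start of Slc1a2 lies 47779 bases inside the gene as GENCODE draws it. GC boxes occurred 3 times in the window of Slc17a7, once in those of Slc1a1 and Slc1a3 and 0 times in that of Slc1a2, and 32.7% of all windows held at least 1. The CREB core was in the window of Slc1a3, 13 bases before the start, and in 17.8% of all windows. The CREB full site TGACGTCA (1.55% of windows), the AP-1 site TGANTCA (6.75%), the ETS site CCGGAAG (6.91%) and the EGR site GCGNGGGCG (4.70%), which were searched because these factors lie downstream of ERK signalling, were in none of the 4 windows. A TATA box, TATAAA, was matched once, on the opposite strand 161 bases before the start of Slc1a3 (left in lower case), and in 12.4% of all windows. Both strands were searched, and the core TGACG also lies within the full CREB site. These are matches of letters and say nothing about binding.

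Every n-Braf library was deeper than every control library, with 30152839 to 31832245 assigned counts against 25227112 to 27608256. Braf itself was at 184, 185 and 205 CPM in n-Braf and at 116, 116 and 123 CPM in the control libraries (adjusted p = 0.0533 in edgeR). Control libraries 1 and 2 stood apart in tissue content: the 14 tested markers of the choroid plexus, the ventricular epithelium that makes cerebrospinal fluid, summed to 93.0, 113 and 106 CPM in the n-Braf libraries, against 3671, 2068 and 143 CPM in controls 1, 2 and 3. Of these markers, 0 were at zero counts in any library. Values with control 3 as the only control are given beside the results, its spread then being taken from the n-Braf libraries. Over all genes the quasi-likelihood test called 0 of 20604 (0%), with 1405 genes (6.82%) at an unadjusted p under 0.05. DESeq2 called 79 (0.383%), and 29 of 20620 (0.141%) have an adjusted p under 0.05 in the authors' deposited table. All 3 approaches called 0 of the 9 transporters. In bulk tissue, fewer cells of a type and less RNA per cell cannot be told apart.

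Set on one scale per kilobase of exon, the 9 transcripts span a wide range of levels. Slc1a2 was the most abundant, at 279 ± 1.42 CPM per kilobase in n-Braf and 250 ± 9.01 in the controls (SD, n = 3 each). Slc17a7 followed, at 96.2 ± 7.92 in n-Braf and 85.6 ± 3.73 in the controls, and then Slc1a3, at 46.5 ± 0.962 in n-Braf and 45.0 ± 1.91 in the controls. Slc1a1, Slc6a11 and Slc32a1 came next, with ranges over the 6 libraries of 12.5 to 16.6, 9.29 to 11.5 and 7.64 to 8.46 CPM per kilobase, which do not overlap. Slc17a6 (2.11 to 4.75), Slc6a13 (0.309 to 2.39) and Slc17a8 (0.495 to 0.877) were the lowest, and Slc6a13 overlapped both of its neighbours in this order. Among the vesicular glutamate carriers Slc17a7 made up 95.1% to 96.9% of the per-kilobase signal in the n-Braf libraries and 94.0% to 97.0% in the controls. Among Slc1a1, Slc1a2 and Slc1a3, Slc1a2 made up 81.8% ± 0.272 in n-Braf and 81.0% ± 0.276 in the controls, and Slc1a3 13.6% ± 0.199 in n-Braf and 14.6% ± 0.117 in the controls (SD, n = 3 each).

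**Figure D1:**
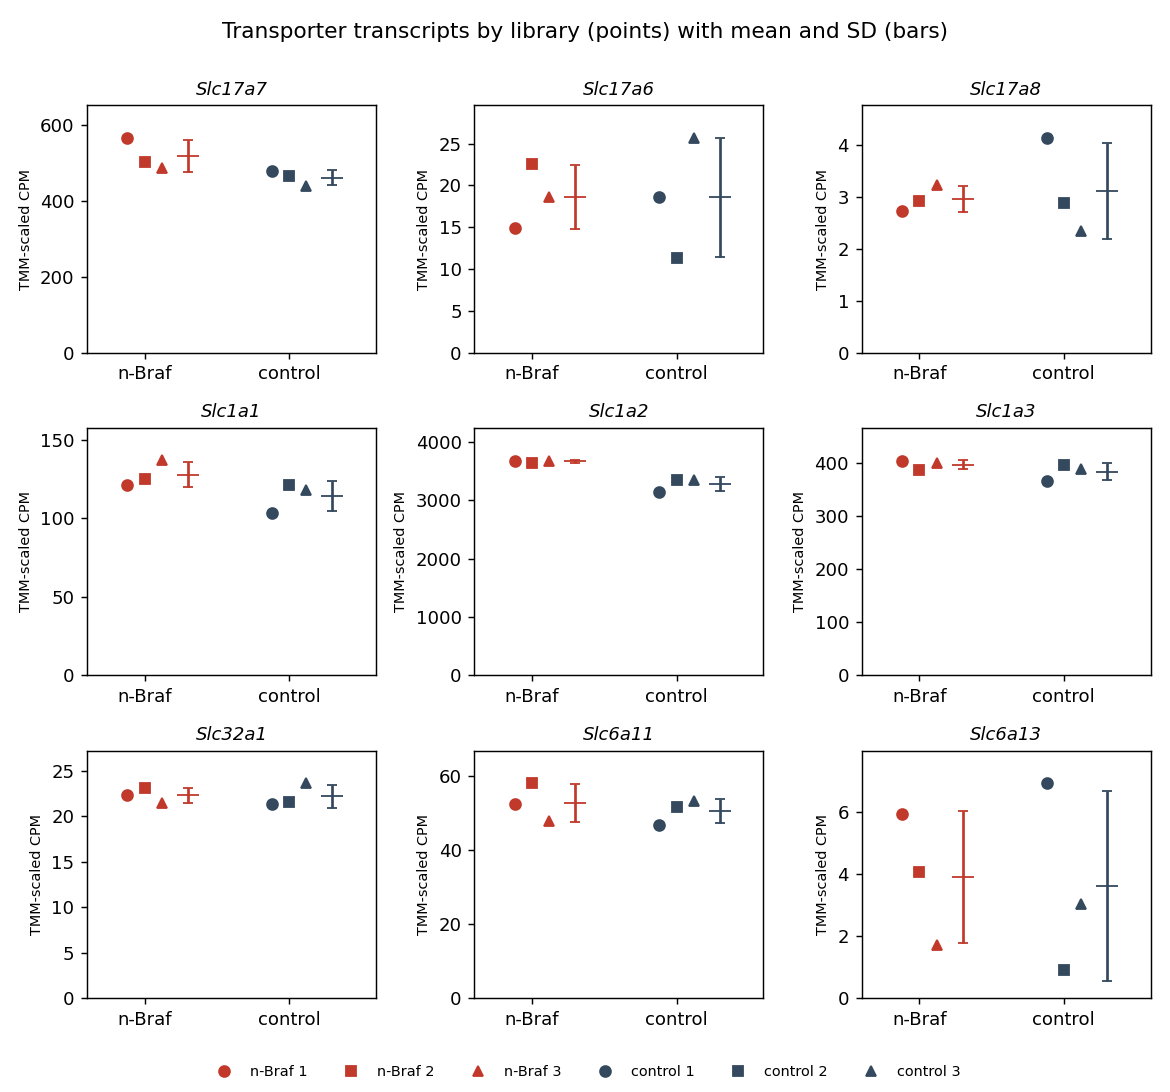
TMM-scaled CPM (vertical axis, from 0) of each transporter in the 3 n-Braf libraries (left in each panel) and the 3 control libraries (right), with the mean and SD of each group beside the points. The n-Braf points lie above every control point for Slc17a7, Slc1a1 and Slc1a2 and are mixed with them for the other 6 genes.

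Slc17a7 (ENSMUSG00000070570, chromosome 7 at 45163949 to 45176142, plus strand) loads glutamate into the vesicles of hippocampal principal neurons. Its level was 567, 503 and 486 CPM in n-Braf 1, 2 and 3 and 479, 466 and 440 CPM in the controls. The n-Braf libraries all lay above the controls, although the lowest of them exceeded the highest control by little. The log2 fold change was 0.17 (SE 0.08, 95% interval -0.0048 to 0.34), with an unadjusted p of 0.0554 and an adjusted p of 0.745 in edgeR. Against control 3 alone, whose spread is then taken from the n-Braf libraries, it was 0.24. The marker list of excitatory neurons, which includes Camk2a and Neurod6, deviated from its mean over the 6 libraries by 0.064, -0.090 and 0.19 on the log2 scale in n-Braf 1, 2 and 3 and by -0.085, -0.032 and -0.044 in controls 1, 2 and 3. Slc17a7 deviated by 0.21, 0.041 and -0.0067 in n-Braf and by -0.028, -0.068 and -0.15 in the controls, so its highest library, n-Braf 1, was not the highest for that list. n-Braf 1 was also the library with most neocortical marker RNA, with a mean deviation of 0.27. A fit that included the neocortical list mean as a term gave Slc17a7 a log2 fold change of 0.13. With the choroid plexus or the leptomeningeal list mean as the term it was 0.24 or 0.20. The part of neocortical tissue in the level of Slc17a7 was not tested.

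Slc17a6 (ENSMUSG00000030500, chromosome 7 at 51622006 to 51671119, plus strand) was at 14.9, 22.5 and 18.6 CPM in n-Braf and at 18.7, 11.4 and 25.7 CPM in the controls. The groups overlapped entirely, the controls holding both the lowest and the highest library. The log2 fold change was 0.0089 (SE 0.26, 95% interval -0.58 to 0.60, adjusted p = 0.998 in edgeR), and when control 3, the highest library, was the sole control it was -0.46. The 6 tested markers of subiculum and retrosplenial cortex, regions next to the dissected hippocampus, deviated by 0.12, 0.26 and -0.15 in n-Braf and by -0.045, -0.47 and 0.27 in the controls. Control 2 was the lowest library, and control 3 the highest, for the mean of this list and for Slc17a6 alike. In the list mean n-Braf 2 was close behind control 3 (0.26 against 0.27). Among the single markers, control 2 was lowest only for Fn1 and Tshz2, and control 3 was highest only for Scn4b. Whether the dissection accounts for the spread of Slc17a6 was not tested. The 11 tested markers of thalamus and septum did not run with it: control 1 was highest in them, at 0.48, and control 3 was at 0.042.

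Slc17a8 (ENSMUSG00000019935, chromosome 10 at 89574020 to 89621253, minus strand) is expressed in the hippocampus by some interneurons. It had the lowest mean CPM of the 9 in both groups. Its expected counts were 87, 93 and 95 in n-Braf and 111, 77 and 60 in the controls, or 2.72, 2.93 and 3.23 CPM against 4.14, 2.88 and 2.34 CPM. The n-Braf libraries lay within the range of the controls. n-Braf over control gave a log2 fold change of -0.076 (SE 0.24, 95% interval -0.61 to 0.46, adjusted p = 0.986 in edgeR). It was 0.18 without control 1, the library with the highest level, and 0.34 against control 3 alone, so no direction can be given.

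Slc32a1 (ENSMUSG00000037771, chromosome 2 at 158610767 to 158615748, plus strand), the vesicular carrier of inhibitory neurons, was among the steadiest of the 9. It was at 22.3, 23.1 and 21.5 CPM in n-Braf and at 21.4, 21.6 and 23.7 CPM in the controls. On the log2 scale the fold change was 0.0070 (SE 0.08, adjusted p = 0.997 in edgeR), with a 95% interval of -0.18 to 0.20, and it was -0.085 against control 3 alone. The gene shares its locus with Gm14205, an annotated antisense transcript whose counts equalled 27.0% to 40.2% of those of Slc32a1. The kit keeps strand, but the strand setting of the counting is not given in the sources used here, so how reads were divided between them is uncertain. Gad1 and Gad2, which encode the enzymes that make GABA, averaged 183 ± 6.04 CPM and 119 ± 3.20 CPM in n-Braf, against 172 ± 15.4 CPM and 111 ± 12.2 CPM in control libraries (SD, n = 3 each).

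Slc1a2 (ENSMUSG00000005089, chromosome 2 at 102658659 to 102790784, plus strand), the main glutamate uptake carrier of astrocytes, was at 3669, 3640 and 3675 CPM in n-Braf and at 3146, 3352 and 3350 CPM in the controls. The 3 n-Braf libraries lay within 1% of one another and all above the controls. The log2 fold change was 0.16 (SE 0.07, 95% interval 0.0062 to 0.31), with an unadjusted p of 0.0430 and an adjusted p of 0.730 in edgeR. In this fit Slc1a2 was the only one of the 9 with an unadjusted p under 0.05, beside 6.82% of all genes. Its unadjusted p was 0.121 in the authors' deposited edgeR values and 0.155 in edgeR with library size scaling. With DESeq2, limma-voom and robust quasi-likelihood, Slc1a2 (unadjusted p = 0.0132, 0.00812 and 0.0328) and Slc17a7 (0.0356, 0.0424 and 0.0465) were under 0.05. None of these passed after adjustment, the smallest adjusted p being 0.479 for Slc1a2 with DESeq2. Leaving out controls 1 and 2 gave a log2 fold change of 0.13. The astrocyte list, which includes Aqp4, Aldh1l1 and Gja1, deviated by -0.013, -0.0013 and 0.0088 in n-Braf and by 0.057, -0.074 and 0.022 in the controls on the log2 scale, so it did not separate the groups. Over the same libraries Slc1a2 deviated by 0.082, 0.071 and 0.085 in n-Braf and by -0.14, -0.048 and -0.049 in the controls. The antisense transcript Gm13872 in the same locus had at most 0.439% as many counts as Slc1a2.

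Slc1a3 (ENSMUSG00000005360, chromosome 15 at 8634124 to 8710764, minus strand), the second astrocytic glutamate carrier, was at 403, 388 and 400 CPM in n-Braf and at 366, 397 and 389 CPM in the controls. The groups overlapped, with control 1 the lowest library. Its log2 fold change was 0.047 (SE 0.06, 95% interval -0.093 to 0.19, adjusted p = 0.948 in edgeR), and 0.027 against control 3 alone. Slc1a1 (ENSMUSG00000024935, chromosome 19 at 28835049 to 28913960, plus strand), the neuronal carrier, was at 121, 125 and 137 CPM in n-Braf and at 104, 121 and 118 CPM in the controls. Its groups were apart by less than 1 CPM, with n-Braf 1 at 121.4 CPM and control 2 at 120.9 CPM. The log2 fold change was 0.16 (SE 0.08, 95% interval -0.016 to 0.34, adjusted p = 0.774 in edgeR), and it was 0.11 against control 3 alone and 0.083 with a choroid plexus covariate (the mean of that marker list).

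**Figure D2:**
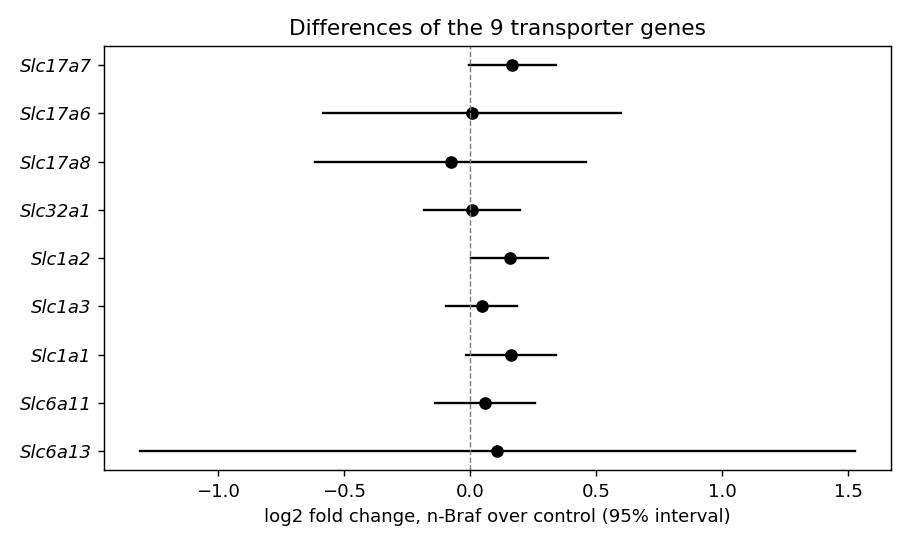
Log2 fold change of n-Braf over control (horizontal axis) for each transporter, with the 95% interval of the edgeR fit as a line. The interval of Slc1a2 runs from 0.0062 to 0.31, those of the other 8 genes include 0, and that of Slc6a13, from -1.31 to 1.53, is the widest.

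Slc6a11 (ENSMUSG00000030307, chromosome 6 at 114131241 to 114249952, plus strand), a GABA carrier of astrocytes, was at 52.4, 58.2 and 47.8 CPM in n-Braf and at 46.9, 51.6 and 53.3 CPM in the controls. The groups overlapped, and the log2 fold change was 0.060 (SE 0.09, 95% interval -0.14 to 0.26, adjusted p = 0.954 in edgeR). It was -0.015 against control 3 alone.

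Slc6a13 (ENSMUSG00000030108, chromosome 6 at 121300227 to 121337733, plus strand) behaved unlike the other 8. It was at 5.95, 4.06 and 1.70 CPM in n-Braf and at 6.94, 0.897 and 3.04 CPM in the controls, with 190, 129 and 50 expected counts in n-Braf and 186, 24 and 78 in the controls. High and low libraries occurred in both groups. The log2 fold change was 0.11 (SE 0.63, 95% interval -1.31 to 1.53, adjusted p = 0.991 in edgeR), so folds from 0.404 to 2.88 lie within the interval, and against control 3 alone it was 0.37. The 16 markers of leptomeninges, among them Dcn, Lum and Igf2, deviated from their mean by 0.41, 0.0090 and -1.06 on the log2 scale in n-Braf and by 1.02, -0.46 and 0.077 in the controls, and summed to 238, 198 and 132 CPM in n-Braf and 377, 205 and 196 CPM in the controls. Of the 16 markers, 0 were at zero counts in any library. Slc6a13 deviated by 0.95, 0.40 and -0.82 in n-Braf and by 1.17, -1.69 and -0.0073 in the controls. By these deviations the 2 highest and the 2 lowest libraries were the same for the gene and the list. By the summed CPM of the list, the 2 lowest were n-Braf 3 and control 3, and control 2 was above n-Braf 2.

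The 3 genes named next, chosen after their values were seen, had the same order of the 6 libraries as Slc6a13. They were the leptomeningeal markers Slc22a6, an organic anion transporter, and Fmod, a matrix proteoglycan, and Slc6a12, a betaine and GABA transporter whose gene lies next to Slc6a13 on chromosome 6. Slc22a6 was at 4.19, 3.65 and 0.783 CPM in n-Braf and at 5.30, 0.486 and 3.39 CPM in the controls. Slc6a12 had 34, 16 and 7 expected counts in n-Braf and 47, 6 and 11 in the controls. This order was found in 0.296% of the other 20603 genes and in 2 of the 16 leptomeningeal markers. With the mean of the leptomeningeal markers as a covariate, Slc6a13 had a log2 fold change of 0.90 (unadjusted p = 0.00836, adjusted p = 0.548 in edgeR). The part that meningeal tissue in the dissection plays in the level of Slc6a13 was not tested.

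**Figure D3:**
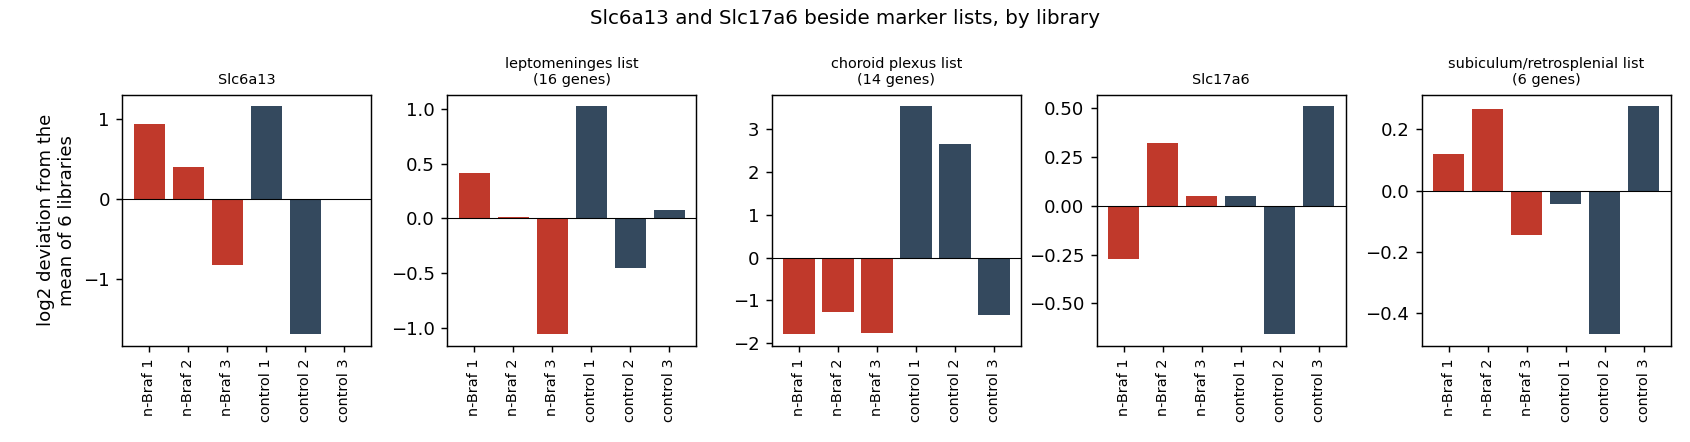
Log2 deviation from the mean of the 6 libraries (vertical axis, a different range in each panel) for Slc6a13, the leptomeningeal and choroid plexus marker lists, Slc17a6 and the subiculum and retrosplenial list, with n-Braf libraries left of the controls. Slc6a13 and the leptomeningeal list are both highest in control 1 and n-Braf 1, and Slc17a6 and the subicular list are both lowest in control 2.

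Ratios of 2 transporters within a library do not depend on how libraries are scaled, and 5 were compared with an exact two-sided permutation test over the 20 assignments of libraries to groups, which cannot give a p below 0.10. The ratio of Slc1a3 to Slc1a2 counts was 0.110, 0.107 and 0.109 in n-Braf and 0.116, 0.118 and 0.116 in the controls. The n-Braf libraries all lay below the controls, and the spread within a group was small. The difference of the log2 ratios was -0.11, with an exact p of 0.10 and 0.50 after adjustment over the 5 ratios, and it ran from -0.12 to -0.098 when each library was left out in turn. The ratio of Slc32a1 to Slc17a7 was 0.0393, 0.0460 and 0.0442 in n-Braf and 0.0446, 0.0463 and 0.0538 in the controls, which overlap, with a log2 difference of -0.16 (exact p = 0.20). Slc6a11 to Slc1a2 differed by -0.10 (exact p = 0.40), Slc17a6 to Slc17a7 by -0.10 (exact p = 0.90) and Slc6a13 to Slc6a11 by 0.32 (exact p = 0.90).

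**Figure D4:**
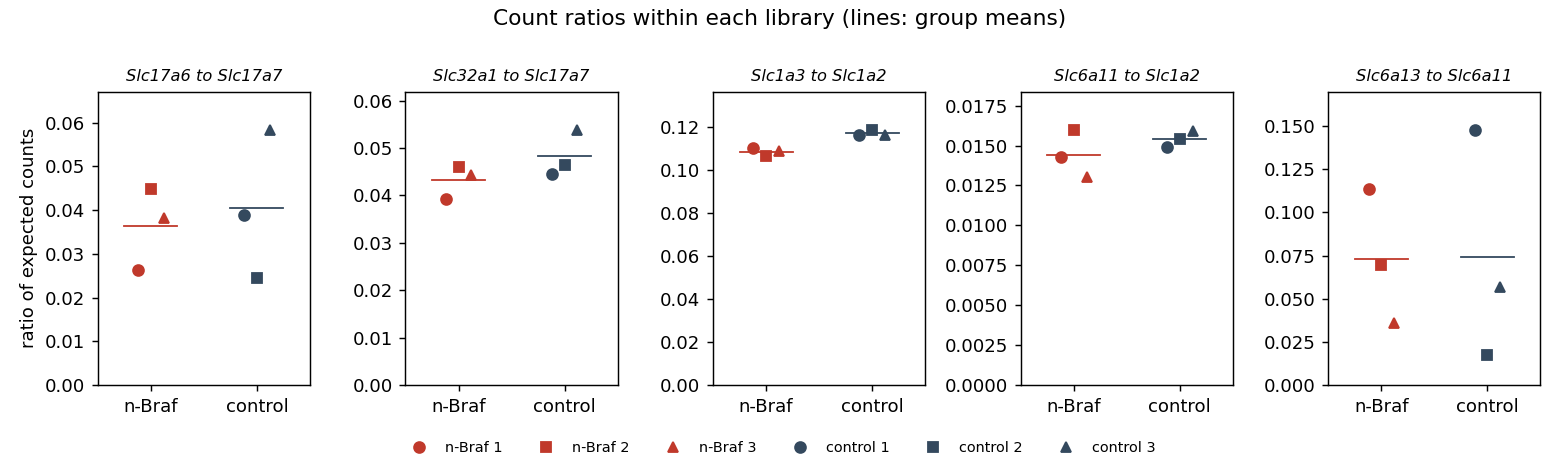
Ratio of expected counts of 2 transporters in each library (vertical axis, from 0), n-Braf left of control in each panel, with group means as lines. In the Slc1a3 to Slc1a2 panel the n-Braf libraries (0.107 to 0.110) all lie below the controls (0.116 to 0.118), and in the other 4 panels the groups overlap.

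Over the 9 transporters 8 had a log2 fold change above 0, beside 49.0% of all genes tested and 61.9% of the 6776 genes with a mean CPM of at least 20. The median of the 9 was 0.060, beside -0.0042 over all genes and 0.029 over those 6776. The groups did not overlap in 3 of the 9, all higher in n-Braf, beside 11.5% of all genes. Against control 3 alone 6 of the 9 had a log2 fold change above 0. Marker lists of other tissue and cell types also had most genes on one side, with 0 genes past the threshold in each. The mean of the ependyma list did not overlap between the groups. It deviated by -0.36, -0.89 and -0.52 in n-Braf and by 0.99, 0.81 and -0.035 in the controls. Of its 9 tested genes, 9 were lower in n-Braf, 7 of them without overlap. In the lists given next, the list means overlapped between the groups. Oligodendrocyte markers were lower in n-Braf in 15 of 15 genes (median -0.35), 3 of them without overlap, and summed to 1622, 1630 and 2194 CPM in n-Braf and 2237, 1921 and 2456 CPM in the controls. Leptomeningeal markers were lower in 14 of 16 (median -0.40) and markers of thalamus and septum in 9 of 11 (median -0.33). Control 1 was the highest library for both lists, with mean log2 deviations of 1.02 and 0.48. Higher values prevailed for neocortex, in 13 of 14 genes (median 0.15), and for excitatory neurons, in 10 of 12 (median 0.086). Their part in the transporter values was not tested. The members were not independent of one another: over the 6 libraries Slc1a2 correlated with Slc1a1 (Pearson r 0.85) and with Slc1a3 (0.77), and Slc32a1 with Slc6a11 (0.79), while Slc17a8 ran opposite to Slc32a1 (-0.76). These values are descriptions over libraries that share the 2 groups and the scaling.

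The enzymes and carriers that make, recycle and break down glutamate and GABA had a median difference close to that of the transporters. Slc38a3, given below, differed more than any of the transporters. Of 18 such genes, all tested, 13 lay above 0 and 5 below, the median being 0.055 on the log2 scale, and 0 passed the test in either direction. The sign of this median was not stable: it was -0.032 against control 3 alone and -0.035 with the choroid plexus covariate. Slc38a3, a glutamine carrier of astrocytes, was at 22.6, 19.98 and 19.0 CPM in n-Braf and at 37.3, 26.4 and 23.1 CPM in the controls. Its groups did not overlap, as in 11.5% of all genes, and control 1, the library with most choroid plexus RNA, was the highest. For Slc38a3 edgeR gave -0.49 on the log2 scale (SE 0.17, adjusted p = 0.632), and it was -0.17 against control 3 alone. It was -0.11 with the choroid plexus covariate, -0.36 with the leptomeninges covariate and -0.46 with the neocortex covariate. The part of choroid plexus RNA in this difference was not tested. The glutamine carrier Slc38a2 was at -0.16 (SE 0.11) and the mitochondrial glutamate carrier Slc25a22 at 0.11 (SE 0.08), or -0.22 and 0.033 against control 3 alone. Glul, the astrocytic glutamine synthetase, which is also on the astrocyte list, averaged 504 ± 28.0 CPM in n-Braf, against 500 ± 42.8 CPM in control libraries (SD, n = 3 each).

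Among 10 tested carriers of other amino acids, of 11 listed, 5 were higher and 5 lower, with a median of -0.0039, or 0.094 against control 3 alone, and 0 past the threshold. Slc1a5, a neutral amino acid exchanger of the same family as the glutamate carriers, was at 0.814, 1.23 and 0.885 CPM in n-Braf and at 1.83, 1.79 and 1.596 CPM in the controls. The groups did not overlap, as in 11.5% of all genes, on 26 to 39 expected counts in n-Braf and 41 to 49 in the controls. n-Braf over control was -0.83 on the log2 scale (SE 0.26, adjusted p = 0.594 in edgeR), and -0.71 against control 3 alone. The vesicular neutral amino acid carrier Slc6a17 was at 0.19 (SE 0.09), the subunit gene Slc3a2 at -0.096 (SE 0.11) and the proline carrier Slc6a7 at 0.16 (SE 0.18), or 0.21, -0.17 and 0.15 against control 3 alone.

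The list for the proton pump that energises vesicular uptake, which also holds a chloride carrier gene, had 13 of 17 genes higher. Its median was 0.056, with 0 genes past the threshold. The median was 0.019 against control 3 alone and 0.0015 with the choroid plexus covariate. Atp6v0e2 was at 112, 107 and 101 CPM in n-Braf and at 96.9, 97.7 and 97.2 CPM in the controls, and Atp6v0c at 268, 231 and 233 CPM in n-Braf and at 208, 224 and 225 CPM in the controls. Neither overlapped between the groups (log2 fold changes 0.14, SE 0.06, and 0.16, SE 0.08). The groups did not overlap in 3 of the 17 genes, beside 11.5% of all genes. The subunit genes Atp6v1b2 and Atp6v1c1 were at 0.15 (SE 0.08) and 0.12 (SE 0.07). Against control 3 alone Atp6v0e2 was at 0.14, Atp6v0c at 0.12, Atp6v1b2 at 0.068 and Atp6v1c1 at 0.049. The adjusted p-values of these 4 were 0.732 to 0.820 in edgeR.

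The genes whose levels over the 6 libraries were most like those of a transporter were found among 6591 or 6592 named genes with a mean CPM of at least 20. For Slc1a2 they were Egr3 (Pearson r 0.99), an activity-induced transcription factor, Sgsm3 (0.99) and the GABA-B receptor gene Gabbr1 (0.99). For Slc17a7 they were Wbp2 (0.98), the postsynaptic scaffold gene Shank2 (0.97) and Reep2 (0.97). For Slc1a1 they were Luc7l (0.99), the dystrophin gene Dmd (0.99) and Agtpbp1 (0.99), and for Slc1a3 Cisd1 (0.99), Tnks (0.99) and Btbd1 (0.99). For Slc32a1 they were Nap1l5 (0.98), Dnm3 (0.96) and Ptpa (0.96), and for Slc6a11 the non-coding RNAs Meg3 (0.97) and Snhg11 (0.97) and Poldip3 (0.96). For Slc17a6 they were Cwc27, Znfx1 and Mid2 (all 0.96), and for Slc17a8 Nup214 (0.97), Tmtc1 (0.96) and Smarce1 (0.96). For Slc6a13 they were Fn1 (0.99), Jund (0.98) and Ptdss1 (0.98). Fn1 encodes the matrix protein fibronectin and is also on the subiculum and retrosplenial list. With 6 libraries such values are common: 204 genes reached 0.9 with Slc1a2 and 20 with Slc32a1.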

How the data were processed

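The protocols in the labels describe column-purified total RNA, 10.0 ng of which entered a stranded SMART-Seq kit. Per the submitters' processing notes, bcl2fastq 2.20, fastp 0.20.1, STAR, RSEM and edgeR 3.36.0 were used on mm10; other versions and the strand setting are not given in the sources used here. Per gene, the deposited values are expected counts, and 26.2% to 31.4% per library were not whole (tolerance 0.001). The deposited table also holds the authors' log2 fold changes, mean log2 CPM, p-values and adjusted p-values. Counts were rounded, and filterByExpr (minimum count 10) kept 20604 genes. Scaling was TMM, the test edgeR 4.0.16 quasi-likelihood (R 4.3.3) with group as the only term. Intervals are 95%, from the fit. DESeq2 1.42.0 and limma 3.58.1 (voom) were alternatives. Positions and exon lengths are from GENCODE M21 (GRCm38, the assembly of mm10), all 9 genes matched. List means and likeness use log2 CPM with a prior count of 2.

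Each title carries a number of its own, and p-values measure the spread between these 6 samples. Any 2 libraries differed by more than counting noise (chi-square per degree of freedom at least 8.99). The members, the lists and the alternatives were chosen with earlier results of these data known. The rule for names took all 9 members, the 4 genes with the smallest p in each pathway list, the 3 most alike genes of each member, and list members needed to show a level; Gad1, Gad2, Glul and the genes of equal library order were added after their values were seen. A gene that the rule took from a pathway list is not reported here. The other marker lists (microglia, endothelium, ependyma, hemoglobin, interneuron, astrocyte, choroid plexus, subiculum) had median log2 fold changes of -0.064, 0.029, -1.27, -0.18, 0.093, 0.021, -4.00 and 0.18, with 0 genes past the threshold.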

Additional observations from a re-analysis of the deposited data

How the results depend on the processing

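The count of transporters past the threshold was 0 under all 21 alternatives. The count of all genes past it was 79 with DESeq2, 5 with robust quasi-likelihood, 3 without controls 1 and 2, 3 with the leptomeninges covariate, 2 with the neocortex covariate and 2 at an adjusted p of 0.1, and ran from 0 to 82 when 1 library was left out (82 without control 3). Slc17a7, Slc1a1, Slc1a2 and Slc1a3 kept a positive log2 fold change in all 20 alternatives, from 0.097 to 0.24, 0.083 to 0.20, 0.12 to 0.17 and 0.010 to 0.072. The other 5 changed sign, all with adjusted p-values of at least 0.548. With library size alone as scaling, Slc17a6 was at -0.0076 and Slc32a1 at -0.012. Without controls 1 and 2, Slc17a6 was at -0.46, Slc17a8 at 0.34, Slc32a1 at -0.085 and Slc6a11 at -0.015. With the choroid plexus covariate they were at -0.38, 0.41, -0.085 and -0.015, and with the neocortex covariate at -0.088, 0.12, -0.039 and -0.0026, with Slc6a13 at -0.51. When 1 library was left out, Slc17a6 ran from -0.25 to 0.31, Slc17a8 from -0.25 to 0.18, Slc32a1 from -0.021 to 0.055, Slc6a11 from -0.016 to 0.12 and Slc6a13 from -0.35 to 0.99. With age as a covariate, in weeks (n-Braf 32 to 34, control 31 to 32), Slc6a11 was at 0.24 (unadjusted p = 0.0367, adjusted p = 0.711 in edgeR), Slc17a6 at 0.42, Slc17a8 at -0.32, Slc32a1 at 0.11 and Slc6a13 at 0.46, while Slc17a7 was at 0.16, Slc1a1 at 0.12, Slc1a2 at 0.17 and Slc1a3 at 0.035. The log2 ratio difference ran from -0.42 to 0.21 for Slc17a6 to Slc17a7, from -0.21 to -0.078 for Slc32a1 to Slc17a7, from -0.18 to -0.029 for Slc6a11 to Slc1a2 and from -0.48 to 1.06 for Slc6a13 to Slc6a11. The median of the other amino acid carriers was 0.12 with the choroid plexus covariate, 0.15 with the leptomeninges covariate and -0.13 with the neocortex covariate. The causes were not tested. Libraries of the 2 groups share replicate numbers that the labels tie to no common animal or litter: same-numbered libraries had correlations of their deviations of 0.18, -0.057 and 0.034. With the replicate block, 0 genes passed and the log2 fold changes of Slc1a2 and Slc17a7 were 0.16 and 0.17. Slc17a8 rests on 60 to 111 expected counts a library and Slc6a13 on 24 to 190.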
